A study of Mus musculus with 6 samples.

Results

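Imprinted growth genes were examined in cancer-associated fibroblasts (CAFs) of mouse mammary tumors. They comprise 10 genes chosen by their symbol from the 27179 genes of the count table, namely Igf2, Dlk1, Grb10, Plagl1, Peg3, Peg10, Mest, Ndn, Gnas and Sgce. All 10 passed the filter on low counts, which left 14855 genes for testing. The CAFs came from female raGFP-Wnt1 mice. These mice carry an MMTV-Wnt1 transgene, in which a mammary tumor virus promoter drives the Wnt1 oncogene, together with a heterozygous Pdgfra knock-in of nuclear green fluorescent protein (GFP) that marks fibroblasts. The knock-in was on a C57BL/6 and the transgene on an FVB/NJ background, and the age at tumor collection was not given in the sources used here. GFP-positive cells from 3 tumors were sorted into a CD34 negative and a CD34 positive fraction and sequenced in bulk, which gave 3 libraries per group. All 6 libraries thus share the transgene, the reporter and the tumor setting, and differ by CD34 and by tumor. Each library is named below by its fraction and the number of its tumor, as in negative library 1.

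An imprinted gene is transcribed mainly or only from the copy inherited from 1 parent, because DNA methylation set in the egg or the sperm marks the copies differently. Many imprinted genes act on growth, are high in the fetus and placenta and fall after birth, and several stay on in stem and progenitor cells. In mice, Igf2, Dlk1, Plagl1, Peg3, Peg10, Mest, Ndn and Sgce are transcribed from the paternal copy and Grb10 from the maternal copy in most tissues, whereas Gnas gives several transcripts with different parental use. Gene counts do not separate the parental copies, so the values below are total transcript levels and say nothing on imprinting itself.

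Positions are those of RefSeq on build GRCm38.p6. Igf2 lies at chr7:142650768-142666816, Peg3 at chr7:6703892-6730462 and Ndn at chr7:62348277-62349928. Peg10, at chr6:4747306-4760517 on the plus strand, and Sgce, at chr6:4674350-4747204 on the minus strand, start head to head with 101 bases between them. Mest is at chr6:30733506-30748466, Dlk1 at chr12:109452485-109463336, Plagl1 at chr10:13090832-13131694, Grb10 at chr11:11930499-12037428 and Gnas at chr2:174284320-174346744. Mest overlaps the 3' end of Copg2, which lies on the other strand. The library kit does not mark strand and strand-aware counting was not stated, so reads of that overlap cannot be assigned to either gene from strand.

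Stretches of 250 bases before an annotated start, from RefSeq GRCm38.p6, are shown for the members whose levels differed by CD34 status below and for which such a stretch was given, in capitals wherever a CpG, the dinucleotide that carries DNA methylation, occurs. They are at chr12:109452573-109452822 on the plus strand for Dlk1, chr10:13090582-13090831 on the plus strand for Plagl1 and chr11:12037421-12037670 on the minus strand for Grb10.
Dlk1: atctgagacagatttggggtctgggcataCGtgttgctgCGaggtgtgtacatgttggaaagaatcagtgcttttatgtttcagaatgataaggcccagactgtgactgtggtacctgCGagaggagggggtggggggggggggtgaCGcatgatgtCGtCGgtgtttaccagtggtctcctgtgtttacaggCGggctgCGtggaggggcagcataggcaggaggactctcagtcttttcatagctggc
Plagl1: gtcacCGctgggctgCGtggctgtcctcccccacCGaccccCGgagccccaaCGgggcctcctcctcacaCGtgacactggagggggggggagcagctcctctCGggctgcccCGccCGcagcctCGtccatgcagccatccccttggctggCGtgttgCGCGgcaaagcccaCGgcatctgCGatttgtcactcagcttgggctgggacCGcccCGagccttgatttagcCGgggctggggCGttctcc
Grb10: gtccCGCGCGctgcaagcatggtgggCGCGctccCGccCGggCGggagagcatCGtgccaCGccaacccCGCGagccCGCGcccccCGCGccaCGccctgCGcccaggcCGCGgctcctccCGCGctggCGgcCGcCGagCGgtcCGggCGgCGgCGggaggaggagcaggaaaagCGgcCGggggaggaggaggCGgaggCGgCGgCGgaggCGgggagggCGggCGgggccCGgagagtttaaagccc
The Dlk1 stretch held 8 CpGs, that of Plagl1 19 and that of Grb10 40. Of all 32851 such stretches, 57.0% held fewer CpGs than Dlk1, 80.3% fewer than Plagl1 and 98.7% fewer than Grb10, against a median of 6. A second Grb10 start, with its stretch at chr11:12027972-12028221, had 8 CpGs. The 3 stretches thus differed widely in CpG density. That of Dlk1 lies within the gene span given above, so it precedes a later annotated start of Dlk1 and not the first.

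3 short motifs were sought on both strands. They were GGGGCCCC, a GC-rich sequence known to be bound by PLAGL1, the cAMP response element TGACGTCA, and the E-box CACGTG, and none of their matches overlapped another. Of all stretches, 0.889% held the first, 1.55% the second and 6.02% the third. Among the 17 stretches of 8 members, 1 held each motif: the first and second were both in Peg3, at chr7:6730420-6730669 on the minus strand, and the third in Plagl1. Peg3 is shown because it held the PLAGL1 and cAMP motifs together, which are in capitals.
Peg3: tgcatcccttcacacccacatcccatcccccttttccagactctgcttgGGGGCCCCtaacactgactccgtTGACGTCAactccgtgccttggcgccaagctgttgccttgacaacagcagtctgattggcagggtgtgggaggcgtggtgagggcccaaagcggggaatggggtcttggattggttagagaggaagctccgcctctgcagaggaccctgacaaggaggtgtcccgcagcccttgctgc
A match is a run of letters and was not measured as a bound site here.

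Libraries held between 16238059 and 86609267 counts, and negative library 3 had counts for the fewest genes, 14314 against 16253 to 19220 in the others. Cd34 itself was at 42.0 to 102 CPM (the usual count unit relative to library size, here also scaled for composition) in negative and at 562.5 to 1605 CPM in positive libraries (log2 fold change -3.63 ± 0.44 SE, adjusted p = 0.0414 by limma-voom). Fibroblast markers were abundant in all libraries, with a summed level of 78100 to 112000 CPM over 8 genes. Without a term for the tumor, 0.121% of all genes passed an adjusted p of 0.05 by limma-voom, and 8.57% did with the tumor as a block, which compares the fractions within each tumor. Of all genes, 4.25% were lower and 4.32% higher in CD34 negative CAFs with the block. Among the 8 fibroblast markers, 2 were higher (Pdgfrb and Fbln1) and 2 lower (Lum and Fn1) with the block by limma-voom.

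Per transcript length, Gnas was the most abundant of the 10 genes, with a mean level of 155 RPKM (reads per kilobase of gene length, relative to library size) over the 6 libraries. Sgce, Ndn and Grb10 followed at 56.8, 45.0 and 43.5 RPKM. Gnas lay above these in every library, whereas their ranges over libraries overlapped one another. Mest was at 11.6, Peg3 at 7.80, Plagl1 at 6.09, Peg10 at 4.85, Igf2 at 3.74 and Dlk1 at 2.96 RPKM, again with overlapping ranges. The RPKM of Gnas exceeded that of 97.3% of tested genes and that of Dlk1 exceeded 36.6%. The lowest 2 members by mean length-scaled level, Igf2 and Dlk1, had the widest spread, with a highest library 22.6 and 402 times the lowest.

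**Figure D1:**
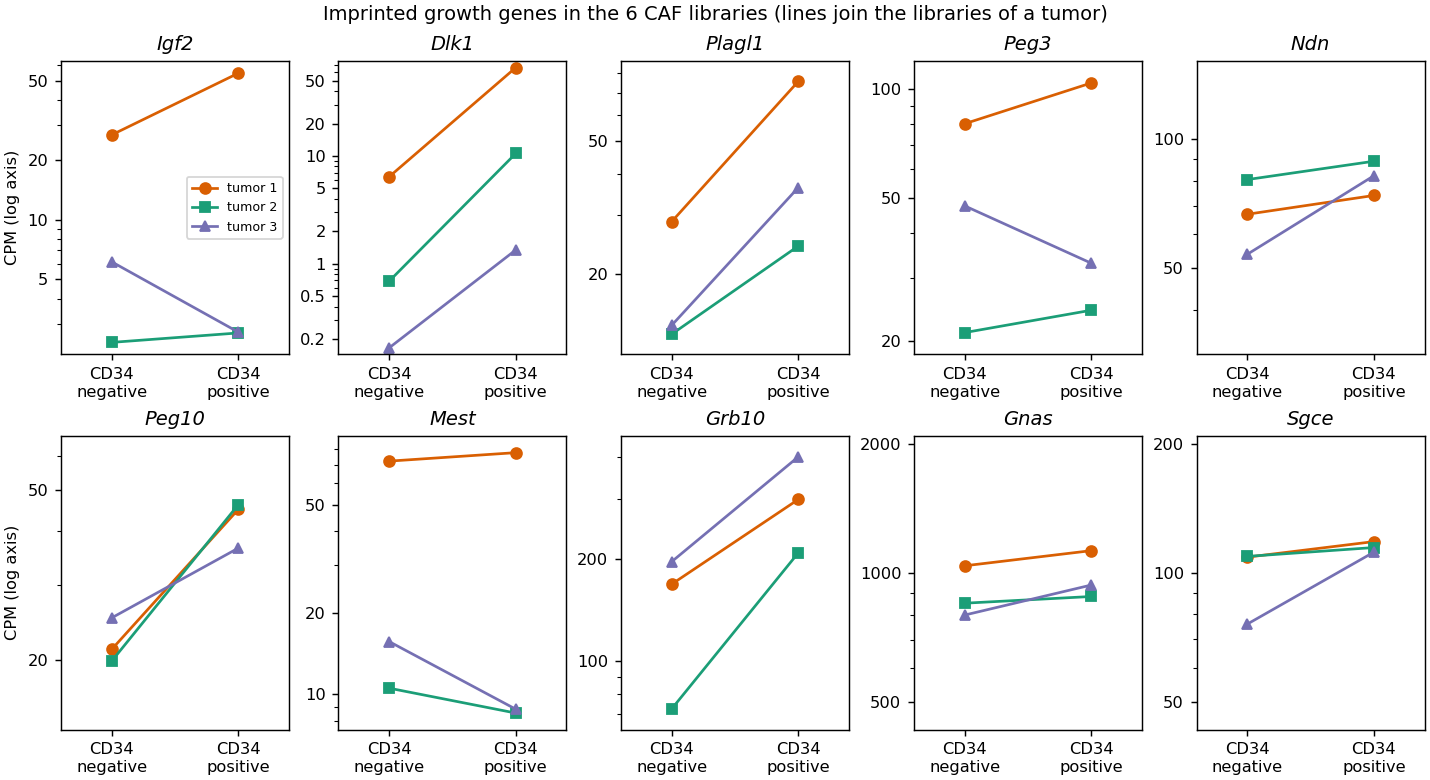
CPM of each gene (log axis, scaled separately per gene) in CD34 negative and CD34 positive CAFs, with 1 point per library and a line joining the libraries of a tumor. Lines of Dlk1, Plagl1, Grb10 and Peg10 rise to the positive fraction in all 3 tumors, while Igf2 and Mest are high in both libraries of tumor 1.

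CD34 negative CAFs had lower levels of 4 of the 10 genes when the fractions were compared within tumors, beside 4.25% of tested genes. Dlk1, which encodes a transmembrane and shed protein that holds back adipocyte differentiation, was 10.7-fold higher in the positive fraction, Plagl1 2.35-fold, Grb10 2.18-fold and Peg10 1.96-fold. No member passed as higher in CD34 negative CAFs, against 4.32% of tested genes. Without the tumor term, none of the 10 passed the threshold by limma-voom, 2 had an unadjusted p under 0.05 (Peg10 and Grb10), edgeR called 0 and DESeq2 called 1, Peg10. Across all 10, the median log2 fold change was -0.46 with the block against -0.01 over all tested genes, and -0.28 against -0.03 without it. In all 3 tumors 7 members were lower in the negative library, a pattern found in 23.4% of tested genes, and the 2 groups did not overlap in CPM for 3 members (Peg10, Grb10 and Sgce), as for 20.4% of tested genes.

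Dlk1 was at 6.41, 0.686 and 0.165 CPM in negative libraries 1, 2 and 3 and at 66.3, 10.6 and 1.34 CPM in positive libraries 1, 2 and 3. The groups overlapped, because negative library 1 was above positive library 3, yet each negative library was below the positive library of its own tumor. Within-tumor log2 ratios were -3.37, -3.92 and -2.93. The fit with the block gave a log2 fold change of -3.43 ± 0.34 (SE; n = 3 tumors; limma-voom adjusted p = 0.000804), and the fit without it -2.83 ± 2.04 (adjusted p = 0.565). Negative library 3 held only 6 Dlk1 counts, so its level has an exact Poisson interval from 0.0606 to 0.359 CPM, which does not reach the 0.949 that bounds positive library 3 from below. These intervals cover counting error only, and negative library 3 also had counts for the fewest genes, 14314. Without tumor 1 the blocked log2 fold change was -3.73 and the adjusted p 0.119, and with the tumor as a random effect it was -3.06 with an adjusted p of 0.304.

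Grb10 encodes an adaptor that binds the insulin and IGF1 receptors and restrains growth. Its level was 169, 72.4 and 196 CPM in negative libraries 1, 2 and 3 and 299.8, 209 and 400.3 CPM in positive libraries 1, 2 and 3. Every positive library was above every negative library. The log2 fold change was -1.12 ± 0.15 with the block (n = 3 tumors; limma-voom adjusted p = 0.00312) and -1.16 ± 0.39 without it (adjusted p = 0.244). The call held without each tumor in turn, at log2 fold changes of -1.27 to -0.94, and the random-effect fit gave an adjusted p of 0.0506.

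Plagl1 encodes a zinc finger transcription factor that restrains proliferation and acts on other imprinted genes. It stood at 28.7, 13.2 and 14.0 CPM in negative libraries 1, 2 and 3 and at 75.6, 24.3 and 36.3 CPM in positive libraries 1, 2 and 3. The groups overlapped through tumor 1, whose negative library was above positive library 2. With the block the log2 fold change was -1.23 ± 0.18 (n = 3 tumors; limma-voom adjusted p = 0.00475), and without it -1.01 ± 0.45 (adjusted p = 0.353). The blocked call held without each tumor, at -1.39 to -1.10, whereas the random-effect fit gave an adjusted p of 0.0929.

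Peg10 derives from a retrotransposon, is needed for the placenta, and had the weakest difference between tumors of the 10. Its CPM was 21.2, 19.9 and 25.1 in negative libraries 1, 2 and 3 against 45.1, 46.2 and 36.6 in positive libraries 1, 2 and 3, with no overlap. The log2 fold change was -0.97 ± 0.19 with the block (n = 3 tumors; limma-voom adjusted p = 0.0133) and -0.96 ± 0.19 without it (adjusted p = 0.0869). It also passed with the tumor as a random effect (adjusted p = 0.0196) and, with no tumor term, by DESeq2 (0.00286) and with sample quality weights (0.0443). It did not pass with the block when tumor 2 was left out (0.0944).

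Sgce, the head-to-head neighbor of Peg10, encodes epsilon-sarcoglycan, a membrane protein of the dystroglycan complex. It had 109, 109 and 75.9 CPM in negative libraries 1, 2 and 3 and 118, 115 and 112 CPM in positive libraries 1, 2 and 3. Its within-tumor log2 ratios were -0.12, -0.07 and -0.56, beside -1.09, -1.21 and -0.54 for Peg10. The groups of Sgce did not overlap, but the difference was small and largest in tumor 3. With the block the log2 fold change was -0.24 ± 0.14 (limma-voom adjusted p = 0.360, 95% interval -0.57 to 0.08). The difference between the fold changes of Peg10 and Sgce was not tested.

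Ndn, a growth suppressor of the MAGE family, and Gnas, which encodes the Gs alpha subunit that couples receptors to adenylyl cyclase, moved little. Ndn was at 66.8, 80.5 and 53.9 CPM in the negative and 73.9, 88.8 and 82.2 CPM in the positive libraries 1, 2 and 3. Gnas was at 1042, 852 and 799 CPM in the negative and 1130.2, 883 and 939.5 CPM in the positive libraries. Each was lower in the negative library of every tumor, with overlapping groups. With the block, the log2 fold change of Ndn was -0.29 ± 0.15 (limma-voom adjusted p = 0.283, 95% interval -0.63 to 0.04). That of Gnas was -0.14 ± 0.12 (adjusted p = 0.580), and its 95% interval from -0.41 to 0.14 leaves no room for a 2-fold change in either direction.

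Igf2, the fetal insulin-like growth factor, Mest, a member of the alpha/beta hydrolase family, and Peg3, a zinc finger transcription factor, did not move in one direction. Igf2 was at 26.7, 2.41 and 6.13 CPM in negative libraries 1, 2 and 3 and at 54.5, 2.69 and 2.72 CPM in positive libraries 1, 2 and 3. It was lower in the negative library of tumor 1, nearly level in tumor 2 and higher in tumor 3, at log2 ratios of -1.03, -0.15 and 1.17. The fits gave it opposite signs, 0.95 ± 1.07 without (limma-voom adjusted p = 0.725) and -0.63 ± 0.35 with the block (adjusted p = 0.329), while the 3 ratios weighted equally averaged -0.01 ± 1.11 (SD). Without tumor 3 the blocked value was -0.89 with an adjusted p of 0.0308, so this call rested on leaving out the tumor of opposite sign.

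Mest had 72.2, 10.5 and 15.7 CPM in negative libraries 1, 2 and 3 and 77.6, 8.53 and 8.82 CPM in positive libraries 1, 2 and 3. Its ratios, -0.10, 0.31 and 0.83, straddled 0, and the log2 fold change was 0.17 ± 0.22 with the block (limma-voom adjusted p = 0.698) and 0.92 ± 0.87 without it (adjusted p = 0.673). Peg3 had 80.2, 21.1 and 47.5 CPM in the negative and 104, 24.3 and 32.9 CPM in the positive libraries 1, 2 and 3. Its log2 fold change was -0.05 ± 0.19 with the block (adjusted p = 0.909) and 0.18 ± 0.59 without it (adjusted p = 0.917). For all 3 genes tumor 3 was the tumor in which the negative library was most above the positive one.

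**Figure D2:**
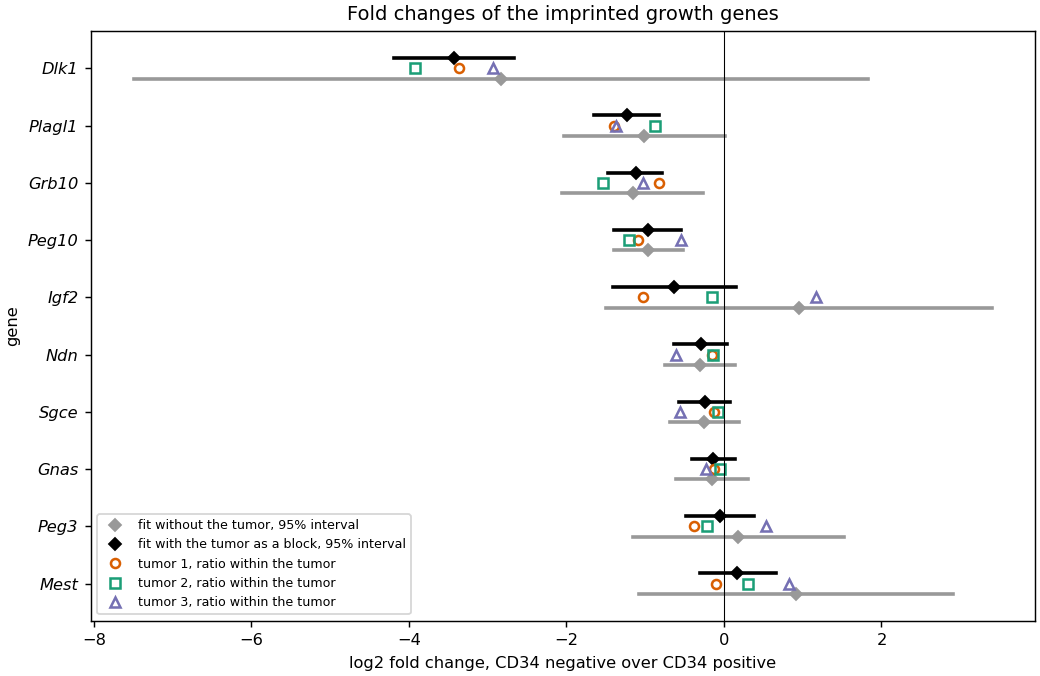
Log2 fold change of CD34 negative over CD34 positive CAFs for each gene (x axis), from limma-voom without (grey) and with (black) the tumor as a block, with 95% intervals, and the ratio within each tumor (open symbols). With the block the intervals of Dlk1, Plagl1, Grb10 and Peg10 lie below 0, from -4.19 to -2.66 for Dlk1 and from -1.39 to -0.55 for Peg10.

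The tumors differed in 6 of the 10 genes by an F test of the tumor terms in the blocked limma-voom fit, a test added after the data were seen, beside 4.03% of all tested genes. They were Mest (adjusted p = 0.00337), Dlk1 (0.00443), Peg3 (0.00639), Igf2 (0.00743), Plagl1 (0.0148) and Grb10 (0.0193). For the first 5, tumor 1 was the highest within both fractions. At equal CD34 status Igf2 was lower than in tumor 1 by a log2 difference of -3.90 in tumor 2 and of -3.03 in tumor 3, Mest by -2.95 and -2.56, Peg3 by -1.97 and -1.16, and Plagl1 by -1.45 and -1.02. Dlk1 was lower by -2.69 in tumor 2 and by -5.54 in tumor 3.

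Grb10 followed another order, with its lowest levels in tumor 2 (-0.87 against tumor 1) and its highest in tumor 3 (0.32). When tumor 1 was left out, Grb10 alone of the 10 still differed between the remaining tumors (adjusted p = 0.000404). Without tumor 2 it no longer did (0.587). By edgeR and by limma-trend, the tumor difference passed for Igf2, Mest, Dlk1 and Peg3 and not for Plagl1 or Grb10, whose adjusted p lay between 0.0532 and 0.0976. Peg10, Ndn, Gnas and Sgce did not pass in any of these fits, with adjusted p of 0.978, 0.436, 0.303 and 0.450 by limma-voom. The mouse, the tumor and whatever was processed with it cannot be told apart.

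**Figure D3:**
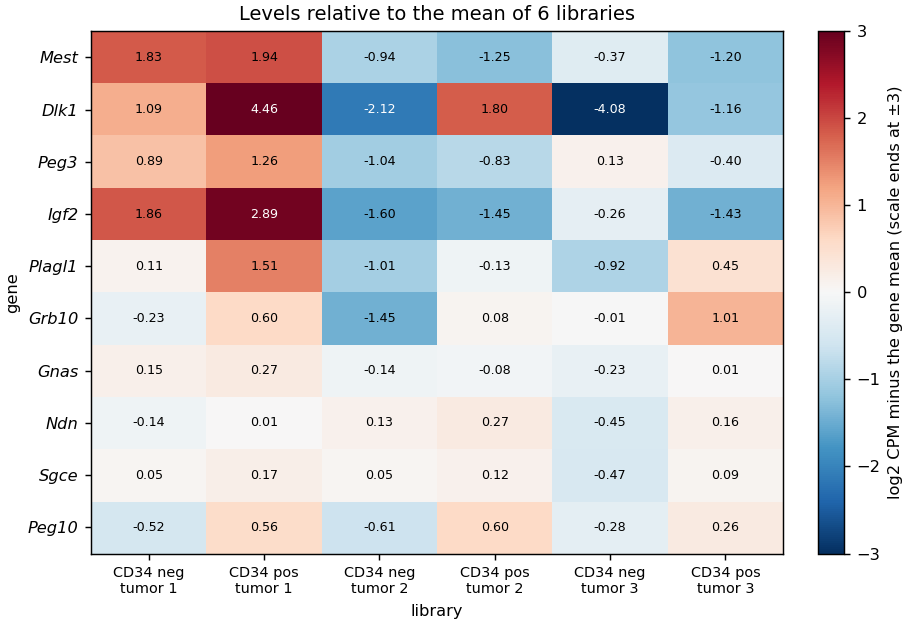
Log2 CPM of each gene minus its mean over the 6 libraries, by library (columns, fractions of a tumor side by side), with genes ordered from the strongest to the weakest difference between tumors. Igf2 and Mest are raised in both libraries of tumor 1, Dlk1 spans from a high in positive library 1 to a low in negative library 3, and Peg10 alternates with the fraction instead of the tumor.

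The levels of Igf2 over the 6 libraries were most like those of Nop53, Cnksr3 and Tob1, with Pearson correlations of 0.999, 0.993 and 0.990 of log2 CPM. For Dlk1 the closest were Fmr1, Amd2 and Ttll13, at 0.990, 0.989 and 0.986. These are the highest of all tested genes with a symbol over only 6 libraries that share tumors in pairs, and are given as a description.

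Other imprinted genes lie beside the members. Of 29 listed neighbors, 27 were in the table and 18 were tested. None passed without the block by limma-voom (2 at an unadjusted p under 0.05), edgeR called 0 and DESeq2 called 1. With the block, 2 were lower and 0 higher by limma-voom, beside 4.25% of all genes lower and 4.32% higher. Blocked edgeR called 1 lower. The 2 were Rian, a long noncoding RNA of the Dlk1 domain, and Ppp1r9a, a protein phosphatase regulatory gene of the Peg10 domain that binds actin. Ins2, Magel2, Snrpn and Snurf had no count in any library. Snurf lies within Snrpn on the same strand, and how reads of overlapping genes were counted was not given. The lack of counts for Snrpn and Snurf thus cannot be read as a lack of transcripts.

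In the Dlk1 domain the noncoding RNAs Meg3, Rian and Mirg are transcribed from the maternal copy, opposite to Dlk1. Rian was at 162, 183 and 137 CPM in negative libraries 1, 2 and 3 and at 337, 330.5 and 315 CPM in positive libraries 1, 2 and 3. Its groups did not overlap, and its log2 fold change with the block was -1.04 ± 0.13 (limma-voom adjusted p = 0.00215). Meg3, which starts 77.7 kb past the end of Dlk1, had 276, 204 and 203 CPM in the negative and 390.4, 216 and 363 CPM in the positive libraries. Its log2 fold change was -0.47 ± 0.16 (adjusted p = 0.102), and that of Mirg -0.95 ± 0.35 (adjusted p = 0.135). Dio3, the thyroid hormone deiodinase at the far end of the domain, was at 0.76 ± 0.25 (adjusted p = 0.0976) and differed between tumors (adjusted p = 0.0108), with its highest levels in tumor 2.

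In the Peg10 domain, Ppp1r9a was at 4.20, 1.70 and 7.98 CPM in negative libraries 1, 2 and 3 and at 20.0, 6.29 and 15.2 CPM in positive libraries 1, 2 and 3. Each negative library was below the positive library of its tumor, and the log2 fold change with the block was -1.61 ± 0.36 (limma-voom adjusted p = 0.0246). Casd1, which starts beyond Sgce, was at -0.11 ± 0.16 (adjusted p = 0.744), and Pon2 at 0.44 ± 0.16 (adjusted p = 0.128). The members and neighbors of this domain thus ranged from lower to slightly higher point estimates in CD34 negative CAFs.

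H19, the maternally transcribed noncoding RNA 72.6 kb from Igf2, had 124, 87.9 and 148 CPM in negative libraries 1, 2 and 3 and 198, 121 and 49.3 CPM in positive libraries 1, 2 and 3. Like Igf2 it was lower in the negative library of tumor 1 and higher in that of tumor 3, with log2 ratios of -0.67, -0.46 and 1.58, and its blocked log2 fold change was 0.11 ± 0.35 (limma-voom adjusted p = 0.894). H19 did not pass the test between tumors (adjusted p = 0.453). Copg2, which overlaps Mest, was at -0.05 ± 0.18 (adjusted p = 0.910), with 7183 counts in all against 7335 for Mest, and did not pass the test between tumors (adjusted p = 0.799). Beside Grb10, Ddc was at -1.89 ± 0.92 (adjusted p = 0.265) and Cobl at -1.59 ± 0.72 (adjusted p = 0.223) in the blocked limma-voom fit. Both were lower in the negative library of every tumor, at no more than 3.85 CPM in any library.

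**Figure D4:**
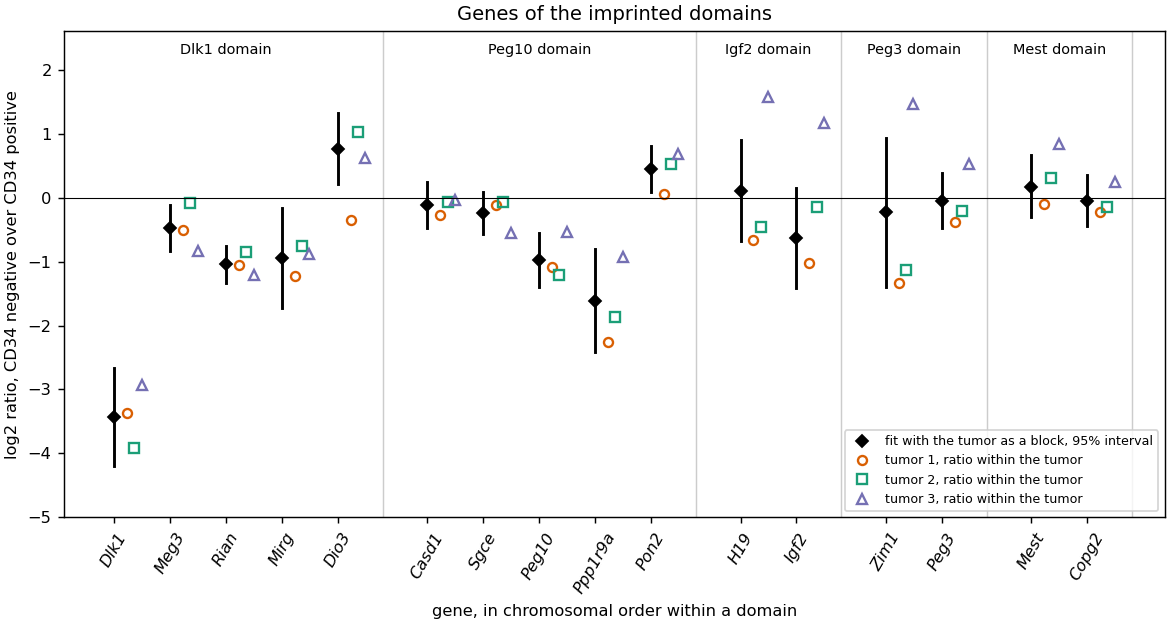
Log2 ratio of CD34 negative over CD34 positive CAFs (y axis) for members and neighboring imprinted genes in chromosomal order within their domain, from the blocked limma-voom fit with 95% intervals (black) and within each tumor (open symbols). The intervals of Dlk1, Meg3, Rian, Mirg, Peg10 and Ppp1r9a lie below 0, and those of Dio3 and Pon2 above 0, of which Meg3 (adjusted p = 0.102), Mirg (0.135), Dio3 (0.0976) and Pon2 (0.128) did not pass.

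Of 32 genes elsewhere in the genome that were listed as imprinted, 25 were tested. Their imprinting in these cells was not measured. With the block 3 were lower and 1 higher in CD34 negative CAFs by limma-voom, beside 4.25% of all genes lower and 4.32% higher. Without it 0 passed (4 at an unadjusted p under 0.05), while edgeR called 0 and DESeq2 called 2. With the block, edgeR called 1 lower and 0 higher, limma-trend 3 lower and 0 higher, and DESeq2 3 lower and 2 higher. Cdkn1c, an inhibitor of cyclin-dependent kinases that limits fetal growth, was at 51.6, 5.87 and 9.24 CPM in negative libraries 1, 2 and 3 and at 85.3, 11.2 and 31.0 CPM in positive libraries 1, 2 and 3. Its log2 fold change with the block was -1.01 ± 0.23 (adjusted p = 0.0250), and it differed between tumors (adjusted p = 0.00337) with tumor 1 highest, as for Igf2 and Mest. Dcn, the matrix proteoglycan decorin, which the study lists among its fibroblast markers, was at -1.12 ± 0.13 (adjusted p = 0.00154). Its level was between 1731 and 8533 CPM over the libraries. Gpr1, a chemerin receptor, was at -3.77 ± 0.96 (adjusted p = 0.0420) from no more than 0.487 CPM in any negative library. Peg13, a noncoding RNA, was the gene that was higher, at 0.77 ± 0.18 (adjusted p = 0.0290).

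Genes that act with the members were followed in fixed lists. Of 10 tested partners of IGF2 and GRB10, 0 passed with the block by limma-voom (4 at an unadjusted p under 0.05; edgeR 0, DESeq2 1). Igf2r, the imprinted receptor that clears IGF2, was at 0.03 ± 0.14 (adjusted p = 0.926), Igf1r, its signaling receptor, at 0.22 ± 0.16 (adjusted p = 0.469), and the receptor substrate Irs2 at 0.53 ± 0.14 (adjusted p = 0.0521). Of 8 adipogenic genes, which DLK1 is known to restrain or alter, 1 was higher in CD34 negative CAFs, Cebpa, at 0.70 ± 0.19 (adjusted p = 0.0482), and 0 lower. That call was made with the block by limma-voom, beside 4.32% of all genes higher. Without the block Cebpa had an adjusted p of 0.337, the random-effect, blocked edgeR and blocked limma-trend fits called 0 of the 8, and blocked DESeq2 called 1 higher and 1 lower. Pparg, the main regulator of adipocyte differentiation, was at -0.62 ± 0.28 (adjusted p = 0.217).

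Gnas, which encodes the Gs alpha subunit, did not pass with the block by limma-voom. Of 20 tested genes of Gs signaling, 4 were higher in CD34 negative CAFs with that fit, beside 4.32% of all genes, and 0 lower. They were the adenylyl cyclases Adcy7 (0.87 ± 0.14, adjusted p = 0.00615) and Adcy6 (0.49 ± 0.13, adjusted p = 0.0462), the protein kinase A subunit Prkar1a (0.52 ± 0.14, adjusted p = 0.0485) and the cAMP phosphodiesterase Pde4a (0.85 ± 0.22, adjusted p = 0.0475). Adenylyl cyclases make cAMP and Pde4a breaks it down. With the block, edgeR and limma-trend each called 1 of the 20, and without it limma-voom called 0 (6 at an unadjusted p under 0.05). Of 10 tested genes of the dystroglycan complex, to which Sgce belongs, 1 was higher, dystrophin (Dmd, 0.90 ± 0.21, adjusted p = 0.0311). Of 14 tested genes that set, keep or remove DNA methylation and imprints, 1 was lower, Uhrf1 (-1.67 ± 0.36, adjusted p = 0.0219). Uhrf1 recruits the maintenance methyltransferase Dnmt1. Its within-tumor log2 ratios were uneven, at -0.14, -2.08 and -0.63 in tumors 1, 2 and 3. The log2 fold change of Dnmt1 was -0.15 ± 0.25 (adjusted p = 0.784). Without the block, Dmd and Uhrf1 had adjusted p of 0.158 and 0.387, and blocked edgeR and limma-trend called 0 genes of either list. The random-effect fit called 1 dystroglycan gene higher and 1 lower, and 0 of the methylation genes, and blocked DESeq2 called 1 dystroglycan gene higher and 2 lower. At 4.25% of all genes lower and 4.32% higher, counts of 1 in 10 or 14 genes are near the background.

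Markers of other cells moved with the groups and the tumors. The summed level of 6 pericyte markers was 199 to 237 CPM in negative and 85.6 to 187 CPM in positive libraries. With the block by limma-voom 3 of them were higher (Cspg4, Mcam and Notch3) and 2 lower (Kcnj8 and Abcc9) in CD34 negative CAFs. The sum of 7 endothelial markers was 11.7 to 32.8 against 55.9 to 128 CPM. Tek, the only one called, was at 5.45 to 13.4 CPM in negative and at 48.8 to 116 CPM in positive libraries (-3.09 ± 0.35, adjusted p = 0.00154), and Pecam1 and Kdr reached 12.9 and 12.6 CPM in positive library 1, whereas the defining marker Cdh5 was between 0.220 and 4.18 CPM in negative and between 0 and 1.61 CPM in positive libraries. The sum of 8 epithelial markers was 167 and 152 CPM in tumor 1, 166 and 107 CPM in tumor 2 and 63.3 and 23.7 CPM in tumor 3, negative library first. The sum of 6 muscle markers was 2.78 to 13.5 CPM in negative and 0.739 to 1.37 CPM in positive libraries, mostly from Des, the only one tested and higher with the block (2.32 ± 0.57, adjusted p = 0.0362), while Myod1, Myf5 and Pax7 were at 0 in every library. Immune and Schwann cell sums did not exceed 23.4 CPM and that of 4 adipocyte markers did not exceed 0.919 CPM, with Lep and Cidec at 0 in every library. The part of these cells in the results on Dlk1, Grb10, Plagl1, Peg10 and the tumor differences was not tested, and in bulk libraries fewer cells of a type and less RNA per cell cannot be told apart.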

How the data were processed

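Total RNA from sorted fibroblasts was sequenced after an Illumina TruSeq v2 preparation, and the labels name polyA RNA. The authors aligned reads to mouse build GRCm38 (mm10) and assigned them to NCBI genes by Rsubread (featureCounts per the submitters' processing notes). The deposited values are raw counts, not normalized, with 1 column per library. How reads with several matches or overlapping genes were counted was not given in the sources used here.

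Groups and tumor numbers came from sample titles. The main fit took its steps from the study's methods, which do not say whether the model had a term for the tumor: edgeR's filterByExpr at a minimum count of 10, TMM scaling, and a two-sided limma-voom test of the groups. Unlike the study, genes without a symbol were kept. The fit without the block called 3 genes higher in CD34 negative CAFs, fewer than the study reports, so it may not be the study's model. Adjustment by Benjamini-Hochberg ran over all 14855 genes left, and an adjusted p under 0.05 counted as passing. Versions were limma 3.58.1, edgeR 4.0.16 and DESeq2 1.42.0 in R 4.3.3. A negative log2 fold change means lower in CD34 negative CAFs. CPM of genes use TMM-scaled library sizes, summed CPM of lists the library total, and RPKM the gene lengths in the table. The 3 tumors are the replicates. Without the block, p-values weigh the group difference against the spread between libraries of a group. With the block, they weigh it against how the difference between fractions varies from tumor to tumor. The F test between tumors has no replicate of a tumor beyond its own fractions. Its error is that same variation of the fraction difference, so it does not measure the spread among mice.

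Negative and positive cells with the same number came out of the same tumor, so the number is a true pairing. Deviations from the group means correlated at 0.373, 0.350 and 0.219 between libraries of the same tumor and at -0.214 to -0.0921 between others. Deviations cancel out within a group, so positive values within tumors push the others negative, and the negative values are no separate support. The fit with the tumor as a block is therefore given beside the other. The F test between tumors and limma-trend (prior count 2) were added after seeing the data.

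The members, the 15 gene lists and the tests were chosen with earlier results of these data known. Named genes are the 10 members and listed genes of their chromosomal domains that were tested or had no counts. Of these, Rtl1, Zim1, Pon3, Asb4, Tfpi2, Peg12 and Ube3a were tested but are given no values in the text. Also named are listed genes past the threshold in either fit (at most 4 per list, by fold), and the 3 genes most correlated with Igf2 and with Dlk1. Marker genes, Pparg, Igf1r, Igf2r, Irs2, and Dnmt1 are named beyond this rule to describe their lists, chosen after their values were seen. Positions and promoters were joined to RefSeq GRCm38.p6 on the NCBI identifier. Promoter sequences were found for 8 of 10 members. The tests were tried on simulated data with known changes.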

Additional observations from a re-analysis of the deposited data

How the results depend on the processing

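With 3 tumors, adding the tumor as a block moved the number of genes called from 18 to 1273 and of members from 0 to 4. With the tumor as a random effect the numbers were 703 genes and 1 member, with the block in edgeR 575 and 4, in DESeq2 1730 and 4, and in limma-trend 780 and 4. Without the block, edgeR called 9 genes, DESeq2 674 and 1 member, and sample quality weights 161 and 1 member. Leaving out libraries or tumors gave 0 to 86 genes and 0 members without the block, and 851 (without tumor 2), 1134 (without tumor 1) and 2019 (without tumor 3) genes and 3, 3 and 5 members with it. Between tumors, 598 genes became 167 by edgeR, 1525 by DESeq2 and 279 by limma-trend, and leaving out 1 tumor gave 410 to 2337 genes and 1 to 6 members.

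Signs of members not called turned with the block and with other tools. Igf2, at 0.95 without the block, was -0.63 with it, -0.75 in edgeR, -0.78 in DESeq2, -0.05 and -0.04 in these with the block, and -0.01 in limma-trend with or without it. Peg3, at 0.18, was -0.05, -0.11, -0.13, -0.02, -0.03 and -0.02 in the same order, and -0.22 with sample quality weights. Left-out libraries gave -0.19 to 1.76 for Igf2 (-0.89, -0.7 and 0.43 with the block, without tumors 3, 2 and 1), -0.34 to 0.68 for Peg3 (-0.32 to 0.15) and -0.02 to 1.5 for Mest. The cause was not tested, beyond voom weighting libraries by their counts and limma-trend weighting them equally. Dlk1, Peg10, Plagl1, Grb10, Ndn, Gnas and Sgce were below 0 in all 26 fits. Other size factors, no count filter and genes with a symbol only kept the count of members called at 0. Low counts limit Dlk1 most, through the 6 of negative library 3, which at 35310817 counts in all was not the shallowest library.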
